A study of Homo sapiens with 12 samples.

Results

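Expression of 10 genes of the hypoxia pathway was examined in HepG2 cells exposed to high glucose and to valproic acid (VPA). The genes were HIF1A, EPAS1, VHL, EGLN1, EGLN3, VEGFA, CA9, ADM, BNIP3 and ANKRD37. They were taken by gene symbol and not by a cut on their values, though earlier results of these data were known when they were chosen. All 10 of the 10 listed had a row among the 16389 genes of the count table. HepG2 cells are a long-used line derived from a human liver tumour, so every group came from the same line, and the study asked how hyperglycaemia and VPA, an anticonvulsant that inhibits histone deacetylases, alter hepatocyte transcripts. LG cells were grown for 48 h in medium with 5.5 mM glucose and HG cells for 48 h in medium brought to 20 mM with D-glucose. LGV and HGV cells had the same 2 media and then received 1 mM VPA for 12 h. Poly(A) RNA was sequenced from 3 libraries in each of the 4 groups. The sources used here do not say whether the untreated cells were harvested before or after those 12 h, so VPA and a difference in culture time cannot be told apart. Nor do they say that replicates came from separate cultures, and the p-values therefore measure the spread between these libraries, which may be technical.

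In the hypoxia pathway, cells sense oxygen through prolyl hydroxylases that mark the alpha subunits of hypoxia-inducible factor (HIF). The von Hippel-Lindau protein recognises the marked subunit and directs its destruction, and when oxygen is scarce the subunit escapes, pairs with ARNT and binds short DNA elements next to genes of glucose uptake, glycolysis, vessel growth, pH control and mitochondrial turnover. In the liver, HIF also acts on lipid and glucose handling. Because the alpha subunits are controlled mainly as proteins, transcript levels of HIF1A and EPAS1 are not a measure of HIF activity, and no oxygen level or HIF protein was measured in these libraries.

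Total counts ran from 29798442 to 45572694 per library, and values are given as CPM, the reads of a gene relative to the library's total, scaled with TMM factors. All 9 hepatocyte markers (ALB, APOA1, APOB, TTR, SERPINA1, HNF4A, AFP, TF and FGB) were present, with a summed level of 52000 to 58700 CPM in LG, 52990 to 60870 in HG, 40050 to 40970 in LGV and 46990 to 61620 in HGV. Of 5 markers each, 2 endothelial genes summed to 2.21 to 4.85 CPM, 2 fibroblast genes to 18.8 to 58.3 CPM, and the leukocyte genes CD14 and LYZ to 909 to 1549 CPM. Nearly all of the leukocyte sum was LYZ, with group means of 965 to 1491 CPM against 1.04 to 4.43 CPM for CD14. PECAM1, TEK, EMCN, COL1A2, COL3A1, DCN, PTPRC, CD68 and CD3E had no row in the count table, from which genes averaging under 10 reads had been left out. LG replicate 3 stood apart from the other LG libraries for CA9, EGLN3 and BNIP3, and values without it are given beside the results that it moves most. In bulk RNA, fewer cells with a transcript and less of it per cell cannot be told apart.

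The DNA element bound by HIF has the core ACGTG or GCGTG, and the stretches upstream of the genes are shown because they differ in how many such cores they hold. RefSeq gave the 250 bases before the start of 8 of the 10 genes on GRCh38.p14, VHL and VEGFA being the others. Capitals mark matches on either strand, CACGT and CACGC being the cores read on the opposite strand, and each line runs 5′ to 3′ on the strand of the gene. The windows are chr9:35673678-35673927 (plus strand) for CA9, chr10:131981924-131982173 (minus) for BNIP3, chr4:185396591-185396840 (plus) for ANKRD37, chr11:10304823-10305072 (plus) for ADM and chr14:33951075-33951324 (minus) for EGLN3.
CA9: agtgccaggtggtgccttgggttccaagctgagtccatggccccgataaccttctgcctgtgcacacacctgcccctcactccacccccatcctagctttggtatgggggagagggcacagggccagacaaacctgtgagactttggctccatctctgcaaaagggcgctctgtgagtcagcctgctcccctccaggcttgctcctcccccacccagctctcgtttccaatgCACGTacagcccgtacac
BNIP3: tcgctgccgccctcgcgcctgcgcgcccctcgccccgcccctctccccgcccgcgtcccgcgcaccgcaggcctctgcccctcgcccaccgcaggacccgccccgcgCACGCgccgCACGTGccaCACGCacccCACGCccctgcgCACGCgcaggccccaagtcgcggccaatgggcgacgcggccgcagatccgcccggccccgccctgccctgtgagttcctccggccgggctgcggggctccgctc
ANKRD37: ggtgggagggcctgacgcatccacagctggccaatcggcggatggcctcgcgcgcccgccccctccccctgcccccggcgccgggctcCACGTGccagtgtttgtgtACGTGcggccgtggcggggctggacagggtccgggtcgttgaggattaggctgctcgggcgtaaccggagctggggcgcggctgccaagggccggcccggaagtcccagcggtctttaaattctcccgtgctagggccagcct
ADM: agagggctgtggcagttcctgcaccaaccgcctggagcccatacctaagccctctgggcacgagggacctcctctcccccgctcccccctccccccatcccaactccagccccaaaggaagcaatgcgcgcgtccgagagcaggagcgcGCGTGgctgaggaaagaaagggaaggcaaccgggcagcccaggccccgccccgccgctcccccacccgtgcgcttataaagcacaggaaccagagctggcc
EGLN3: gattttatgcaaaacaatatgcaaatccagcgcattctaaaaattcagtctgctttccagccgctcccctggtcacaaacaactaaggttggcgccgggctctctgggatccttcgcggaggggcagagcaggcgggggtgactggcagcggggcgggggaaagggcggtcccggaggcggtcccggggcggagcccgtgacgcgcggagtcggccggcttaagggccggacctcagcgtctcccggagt
BNIP3 had 6 matches between positions -143 and -104 from the start, 2 of them from the palindrome CACGTG, which is read on both strands. ANKRD37 held 3, 2 of which came from its own CACGTG at -162. CA9 had 1 ACGTG on the minus strand at -18 and ADM had 1 GCGTG at -101, whereas the EGLN3 window held none. The annotated GRCh37 span of EGLN3 given below reaches further upstream than this RefSeq start. The absence therefore holds for the RefSeq start only, and other starts were not searched. EPAS1 had 1 GCGTG at -117 and EGLN1 had 1 ACGTG at -13. HIF1A has 2 RefSeq starts, and the window of 1 of them held GCGTG at -204. In all, 7 of the 8 genes had a match to either core, against 43.2% of all 35116 promoters of this length and 54.0% of the 15090 promoters of genes in the count table. The 7 are counted by gene, with HIF1A included through 1 of its 2 windows, while the shares are by promoter. A match is a description of the letters in the window and not a binding site.

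Levels were compared between genes per kilobase of summed exons (CPM per kb). These exons came from a different annotation from that used to count reads, so some exon bases may not have been counted. EPAS1, which encodes the alpha subunit HIF-2alpha, had the highest mean in every group, with 31.4 ± 2.5 in LG, 25.2 ± 2.2 in HG, 38.1 ± 5.7 in LGV and 33.4 ± 4.2 CPM per kb in HGV (SD, n = 3). VHL, VEGFA, BNIP3, HIF1A and EGLN1 followed, between 28.3 for VHL in LG and 10.8 CPM per kb for EGLN1 in HG. ADM, EGLN3, CA9 and ANKRD37 formed the low end, at 4.67 CPM per kb or less in every group. Across the 12 libraries EPAS1 stood at percentile 93.1 of all genes with a length and ANKRD37 at percentile 31.0.

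Neighbours in this order often overlapped between libraries. In LG, EPAS1 overlapped VHL, VEGFA overlapped BNIP3, BNIP3 overlapped HIF1A, and the 4 lowest genes (ADM at 2.34, CA9 at 2.06, EGLN3 at 1.21 and ANKRD37 at 1.17 CPM per kb) overlapped each next one. In HGV, VHL and BNIP3 had the same mean of 18.6 CPM per kb and EGLN3, at 2.77, stood clear of ADM above it and CA9 below it. The order depended on the length used. With the MANE Select transcript, a choice made after seeing the summed lengths, VEGFA (14431 bases of summed exons but 3609 in that transcript) had the highest level in every group and EPAS1 fell below it. CA9 was then the lowest in every group, and in HGV EGLN3 (7.53) stood above ADM (5.24 CPM per kb).

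**Figure D1:**
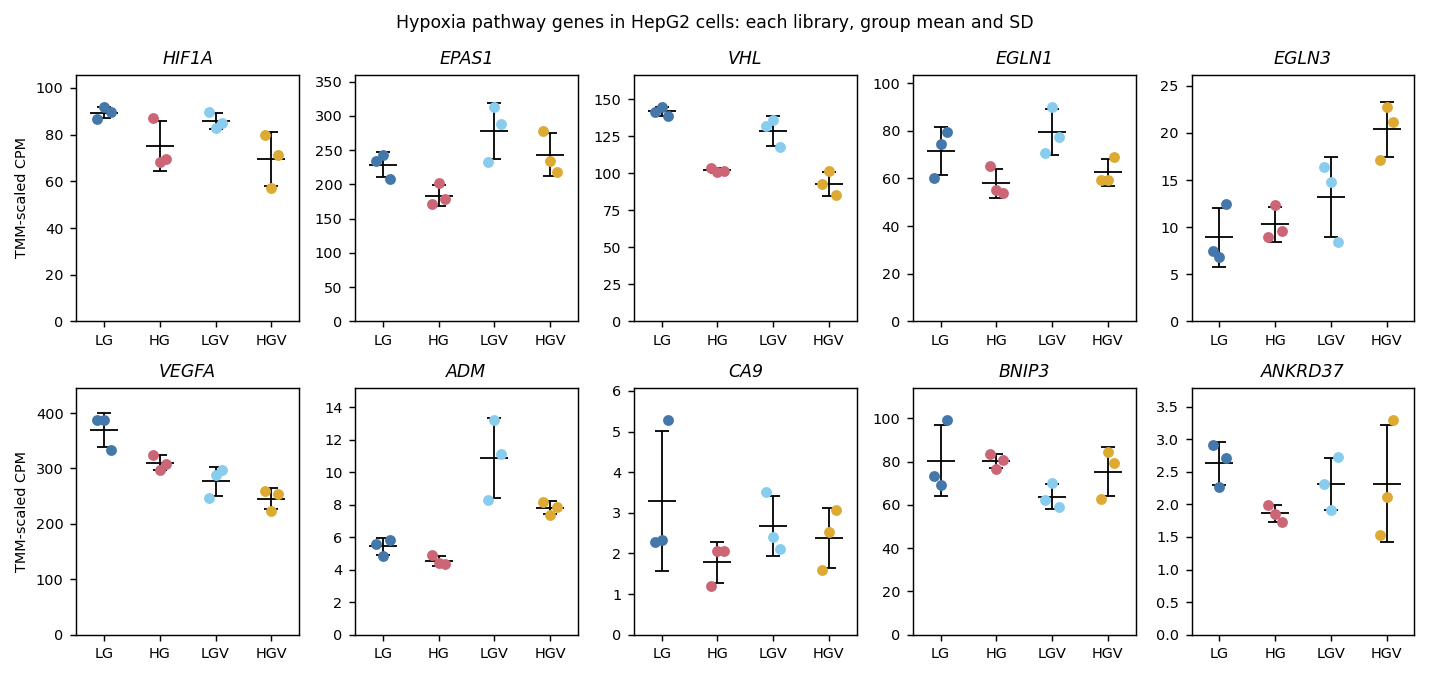
TMM-scaled CPM (linear axes from 0) of each hypoxia pathway gene in the LG, HG, LGV and HGV groups. Points are the 3 libraries of a group and bars the mean with its SD. VHL points of the HG and HGV groups sit below those of LG and LGV, ADM points are highest in LGV, and 1 LG library stands above the other 2 for CA9 and EGLN3.

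Of the transcription factor subunits, EPAS1 rose after VPA in high glucose. HIF1A (ENSG00000100644, GRCh37 chr14:62162231-62214977, plus strand), the alpha subunit found in most cell types, measured 86.8, 91.9 and 89.6 CPM in LG, 87.3, 68.1 and 69.5 in HG, 89.6, 83.0 and 85.2 in LGV, and 79.9, 57.0 and 71.5 in HGV. The HGV libraries lay below the LGV libraries, and all other pairs of groups that were compared overlapped. It passed the threshold in no comparison. The log2 fold change was -0.24 ± 0.12 (SE) in HG against LG (edgeR quasi-likelihood FDR = 0.175), -0.05 ± 0.11 in LGV against LG (FDR = 0.766), -0.11 ± 0.14 in HGV against HG (FDR = 0.549) and -0.33 ± 0.13 in HGV against LGV (FDR = 0.0538). The last is close to the threshold and passed it with the likelihood ratio test (edgeR FDR = 0.044) and DESeq2 (adjusted p = 0.0425).

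EPAS1 (ENSG00000116016, GRCh37 chr2:46520806-46613836, plus strand) measured 234, 243 and 208 CPM in LG and 171, 202 and 179 in HG. With VPA it measured 232, 313 and 287 CPM in LGV and 278, 235 and 218 in HGV. The HG libraries lay below those of both LG and HGV, while the LGV libraries overlapped with LG and HGV. EPAS1 rose in HGV against HG, with a log2 fold change of 0.41 ± 0.12 (95% CI 0.15 to 0.66, edgeR FDR = 0.0128). Its estimate was 0.29 ± 0.13 in LGV against LG (edgeR FDR = 0.0908), and -0.29 ± 0.12 in HG against LG (FDR = 0.0897). The rise in HGV against HG missed the threshold without HG replicate 1 (edgeR FDR = 0.0615), HG replicate 3 (0.057) or HGV replicate 1 (0.0644). In LGV against LG, EPAS1 passed the threshold without LGV replicate 1 (0.42, edgeR FDR = 0.0188), with upper quartile factors (0.37, FDR = 0.0229) and with library size alone (0.45, FDR = 0.00316). Under library size alone the median of all genes was 0.16 rather than -0.01.

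Over the 12 libraries, the genes whose centred log2 CPM profile lay nearest to HIF1A, out of 11953 compared, were DNAJC21, YIPF4 and ZNF664, with root mean square differences of 0.067, 0.077 and 0.083 log2 units against a median of 0.36 for all genes. For EPAS1 they were TP53INP2, STIM1 and MAP2K1, at 0.092, 0.092 and 0.096 against a median of 0.41. These differences are the smallest of all genes compared and so are small by selection. The profiles themselves varied little, with an SD over the libraries of 0.20 log2 units for HIF1A and 0.25 for EPAS1.

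Among the genes that remove HIF alpha subunits, VHL was lower in high glucose with and without VPA, and EGLN3 was higher after VPA in high glucose. VHL (ENSG00000134086, GRCh37 chr3:10183462-10195351, plus strand), the substrate-recognition part of the ubiquitin ligase for hydroxylated HIF alpha, measured 142, 145 and 139 CPM in LG and 104, 101 and 101 in HG. In VPA-treated cells it measured 132, 136 and 118 CPM in LGV and 92.8, 101 and 85.0 in HGV. The 6 high-glucose libraries lay below the 6 low-glucose libraries, LGV lay below LG, and HGV overlapped HG. VHL fell by 0.45 ± 0.11 on the log2 scale in HG against LG (95% CI -0.69 to -0.21, edgeR FDR = 0.0076) and by 0.48 ± 0.12 in HGV against LGV (95% CI -0.74 to -0.23, FDR = 0.00388). VPA gave -0.13 ± 0.11 in LGV against LG (edgeR FDR = 0.392) and -0.13 ± 0.10 in HGV against HG (FDR = 0.302). The difference between these VPA effects was 0.01 ± 0.15 (95% CI -0.30 to 0.32, edgeR FDR = 0.992). The fall in HG against LG missed the threshold without HG replicate 3 (-0.42, edgeR FDR = 0.0667), and that in HGV against LGV stayed past it under every alternative. A long noncoding RNA gene on the opposite strand, which has no row in the count table, shares 23.5% of the VHL exon bases. It is not stated whether counting used strand, so reads of that gene and VHL cannot be told apart in that stretch.

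EGLN1 (ENSG00000135766, GRCh37 chr1:231499497-231558033, minus strand) encodes the main oxygen-sensing prolyl hydroxylase. It measured 60.2, 74.5 and 79.7 CPM in LG, 65.0, 55.0 and 53.7 in HG, 70.9, 90.1 and 77.5 in LGV, and 59.4, 59.4 and 69.1 in HGV. The LGV libraries lay above the HGV libraries, and the other pairs of groups compared overlapped. EGLN1 fell in HGV against LGV, by 0.36 ± 0.13 on the log2 scale (edgeR FDR = 0.0277), whereas HG against LG gave -0.28 ± 0.14 (FDR = 0.129). The fall missed the threshold without HGV replicate 1 (edgeR FDR = 0.102), LGV replicate 2 (0.173) or LGV replicate 3 (0.0714), and with upper quartile factors (0.0762) or library size alone (0.0709). VPA gave 0.16 ± 0.14 in low glucose and 0.11 ± 0.11 in high glucose, neither past the threshold (edgeR FDR = 0.369 and 0.452). A transcript that reads through on the same strand covers 55.8% of the EGLN1 exons in the annotation.

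EGLN3 (ENSG00000129521, GRCh37 chr14:34393433-34931980, minus strand) encodes a prolyl hydroxylase that is itself a HIF target. It measured 7.52, 6.79 and 12.5 CPM in LG, 8.91, 12.4 and 9.58 in HG, 16.4, 14.8 and 8.41 in LGV, and 17.2, 22.8 and 21.2 in HGV. All HGV libraries lay above all HG and LGV libraries, and the other pairs of groups compared overlapped. EGLN3 rose by 0.99 ± 0.16 on the log2 scale in HGV against HG (95% CI 0.64 to 1.33, edgeR FDR = 0.000255), from a mean of 10.3 to 20.4 CPM. Every alternative kept that rise past the threshold. In HGV against LGV it rose by 0.61 ± 0.19 (edgeR FDR = 0.0173), but not without LGV replicate 3 (0.37, FDR = 0.123) or HGV replicate 2 (0.53, FDR = 0.0542). HG against LG gave 0.22 ± 0.22 (edgeR FDR = 0.481), which became 0.56 (FDR = 0.0342) without LG replicate 3. LGV against LG gave 0.57 ± 0.26 (edgeR FDR = 0.099). LG replicate 3 was the highest LG value and LGV replicate 3 the lowest LGV value, and the estimate passed the threshold when LG replicate 3 (0.91, edgeR FDR = 0.00374) or LGV replicate 3 (0.83, FDR = 0.0224) was left out. The interaction, which is the VPA effect in high glucose minus that in low glucose, was 0.43 ± 0.33 (95% CI -0.26 to 1.12, edgeR FDR = 0.668), so the rise was not shown to differ between glucose levels. Without LG replicate 3 the interaction was 0.10 (edgeR FDR = 0.948).

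The 2 secreted factors moved in opposite directions with VPA: VEGFA fell and ADM rose. VEGFA (ENSG00000112715, GRCh37 chr6:43737921-43754224, plus strand), the growth factor that drives vessel sprouting, measured 387, 387 and 334 CPM in LG, 324, 298 and 309 in HG, 246, 287 and 296 in LGV, and 259, 224 and 253 in HGV. Values of LG lay above those of HG and LGV, those of HG above HGV, and LGV overlapped HGV. VEGFA fell by 0.40 ± 0.12 on the log2 scale in LGV against LG (95% CI -0.67 to -0.14, edgeR FDR = 0.0165) and by 0.34 ± 0.10 in HGV against HG (95% CI -0.56 to -0.12, FDR = 0.0156). The glucose comparisons gave -0.23 ± 0.12 in HG against LG (edgeR FDR = 0.158) and -0.19 ± 0.13 in HGV against LGV (FDR = 0.238). Each VPA call could be lost by leaving out 1 library: LG replicate 1 (edgeR FDR = 0.0613) or LGV replicate 1 (0.0684) in low glucose, and HG replicate 3 (0.0585) in high glucose. Library size alone gave -0.22 in HGV against HG (edgeR FDR = 0.103), where the median of all genes was 0.15.

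ADM (ENSG00000148926, GRCh37 chr11:10326620-10328944, plus strand), which encodes the vasodilator peptide adrenomedullin, measured 5.61, 4.87 and 5.85 CPM in LG and 4.88, 4.43 and 4.34 in HG. After VPA it measured 8.28, 13.2 and 11.1 CPM in LGV and 8.19, 7.40 and 7.88 in HGV. Both VPA groups lay above both untreated groups, with LGV above HGV, and LG overlapped HG. ADM rose by 1.01 ± 0.20 on the log2 scale in LGV against LG (95% CI 0.59 to 1.43, edgeR FDR = 0.000882) and by 0.78 ± 0.14 in HGV against HG (95% CI 0.47 to 1.10, FDR = 0.000778), and every alternative kept both rises past the threshold. It fell by 0.49 ± 0.17 in HGV against LGV (95% CI -0.86 to -0.13, edgeR FDR = 0.0314). That fall missed the threshold whenever HGV replicate 1, 2 or 3 or LGV replicate 2 or 3 was left out (edgeR FDR 0.0617 to 0.203), and with upper quartile factors (0.0782) or library size alone (0.0891). HG against LG gave -0.24 ± 0.19 (edgeR FDR = 0.388) and the interaction -0.22 ± 0.25 (95% CI -0.74 to 0.30, FDR = 0.804).

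CA9, BNIP3 and ANKRD37, which are widely used as transcript readouts of HIF, passed the threshold in none of the comparisons. CA9 (ENSG00000107159, GRCh37 chr9:35673925-35681156, plus strand), a carbonic anhydrase on the cell surface that buffers pH outside the cell, measured 2.28, 2.32 and 5.28 CPM in LG, 1.20, 2.06 and 2.07 in HG, 3.51, 2.40 and 2.11 in LGV, and 1.59, 2.52 and 3.06 in HGV, from 38 to 207 reads per library. LG replicate 3, with 207 reads, was far above the other LG libraries, which had 61 and 93. All HG values lay below all LG values, and the other pairs of groups compared overlapped. HG against LG gave -0.87 ± 0.32 on the log2 scale (95% CI -1.53 to -0.21, edgeR FDR = 0.0517), and without LG replicate 3 it gave -0.34 (FDR = 0.356). Without LG replicate 2 (edgeR FDR = 0.0297) or HG replicate 2 (0.0416), and with the likelihood ratio test (0.0346) or DESeq2 (adjusted p = 0.0452), the fall passed the threshold. LGV against LG gave -0.30 ± 0.33 (edgeR FDR = 0.493), which turned to 0.24 without LG replicate 3. HGV against HG gave 0.42 ± 0.28 (edgeR FDR = 0.24) and HGV against LGV -0.17 ± 0.27 (FDR = 0.631). ARHGEF39 on the opposite strand shares 35.7% of the CA9 exon bases, and it is not stated whether counting used strand, so reads of the pair cannot be told apart in that stretch. ARHGEF39 itself gave a log2 fold change of 0.45 in HG against LG, -1.04 in LGV against LG, 0.09 in HGV against HG and 1.55 in HGV against LGV.

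BNIP3 (ENSG00000176171, GRCh37 chr10:133781188-133795471, minus strand), a mitochondrial receptor for autophagy, measured 73.2, 69.0 and 99.2 CPM in LG, 83.2, 76.7 and 80.9 in HG, 62.3, 70.2 and 59.0 in LGV, and 62.5, 84.3 and 79.3 in HGV. Every pair of groups that was compared overlapped, and the highest value was again in LG replicate 3. The log2 fold change was 0.02 ± 0.14 in HG against LG (95% CI -0.27 to 0.31, edgeR FDR = 0.94), -0.32 ± 0.15 in LGV against LG (FDR = 0.0879), -0.09 ± 0.12 in HGV against HG (FDR = 0.561) and 0.22 ± 0.13 in HGV against LGV (FDR = 0.186). Without LG replicate 2, LGV against LG gave -0.43 (edgeR FDR = 0.025), and without LG replicate 3 it gave -0.13 (FDR = 0.471). HG against LG gave 0.20 without LG replicate 3 (edgeR FDR = 0.229).

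ANKRD37 (ENSG00000186352, GRCh37 chr4:186317175-186321782, plus strand), an ankyrin repeat gene known as a HIF target, was the lowest of the 10 genes per kilobase of summed exons in every group. With the MANE Select transcript CA9 was the lowest. ANKRD37 measured 2.92, 2.27 and 2.71 CPM in LG, 2.00, 1.85 and 1.74 in HG, 2.31, 1.92 and 2.72 in LGV, and 1.53, 2.12 and 3.29 in HGV, or 50 to 112 reads per library. Of the pairs of groups compared, HG lay below LG and the rest overlapped. That comparison gave -0.47 ± 0.23 (95% CI -0.96 to 0.01, edgeR FDR = 0.144), and the VPA comparisons gave -0.16 ± 0.24 in low glucose (FDR = 0.615) and 0.31 ± 0.27 in high glucose (FDR = 0.362). At this depth the intervals were wide, as from -0.26 to 0.89 in HGV against HG. UFSP2 on the opposite strand shares 40.3% of the ANKRD37 exon bases and gave log2 fold changes of 0.19 in HG against LG, -0.21 in LGV against LG, 0.08 in HGV against HG and 0.46 in HGV against LGV.

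**Figure D2:**
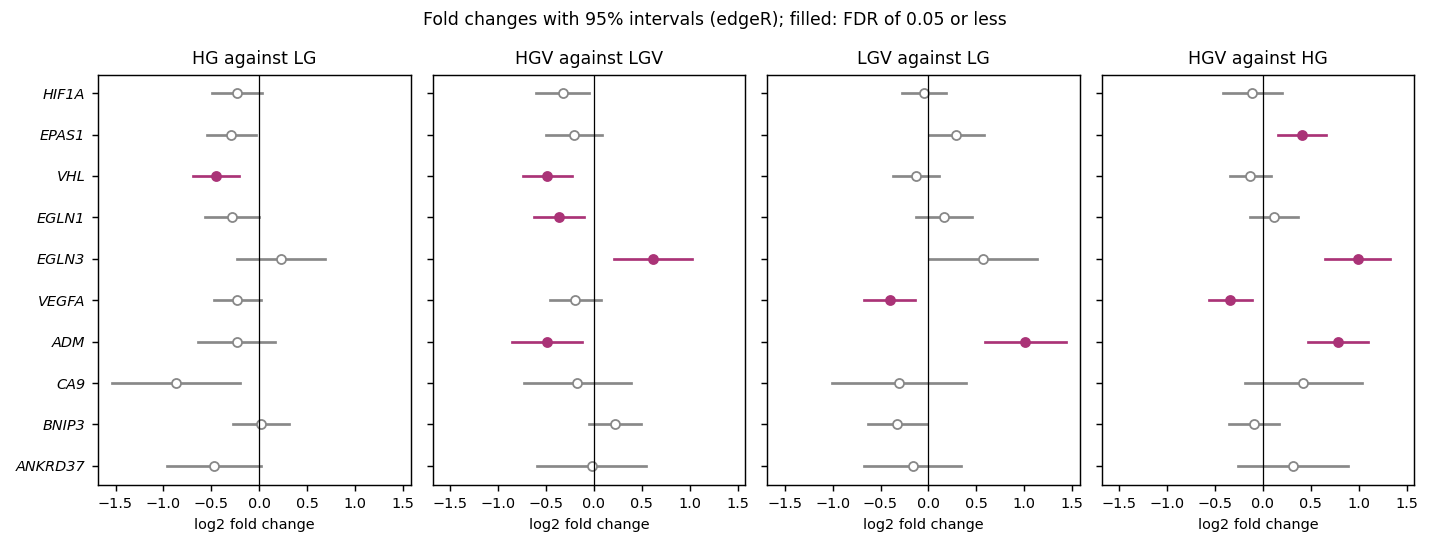
Log2 fold changes of the 10 hypoxia pathway genes (x axis) with 95% intervals from edgeR, in 1 panel per comparison. Filled points have an FDR of 0.05 or less. VHL is the filled point in HG against LG, ADM and VEGFA in LGV against LG, EGLN3, ADM, EPAS1 and VEGFA in HGV against HG, and EGLN3, VHL, EGLN1 and ADM in HGV against LGV.

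High glucose alone called 1 of the 10 genes (VHL, lower), while 24.7% of the 15452 genes tested were called in HG against LG (12% higher and 12.7% lower). The median log2 fold change of the 10 genes was -0.26, against 0.01 for all genes tested, and 8 of the 10 estimates were below 0. CA9, VEGFA, EPAS1, VHL and ANKRD37 did not overlap between HG and LG, all lower in HG, where 41.2% of all genes did not overlap. Without LG replicate 3 the count was 4 of 10, against 34.6% of all genes: VHL (-0.47, edgeR FDR = 0.00492), EPAS1 (-0.35, FDR = 0.0314) and VEGFA (-0.29, FDR = 0.0487) lower and EGLN3 (0.56, FDR = 0.0342) higher. Leaving out HG replicate 3 instead brought the count to 0, and HG replicate 2 or LG replicate 2 to 2, with CA9 added. Across all genes the calls were 1854 higher and 1959 lower, and 2172 higher and 1297 lower with library size alone.

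VPA in low glucose called 2 of the 10 genes (ADM higher, VEGFA lower), against 41.6% of 15944 genes in LGV against LG (21.7% higher and 19.9% lower). Their median was -0.09 and that of all genes -0.01. ADM, VEGFA and VHL did not overlap between LGV and LG, while 50.5% of all genes did not. Without LG replicate 3 there were 3 calls, VEGFA (-0.46, edgeR FDR = 0.00833) lower and ADM (1.08, FDR = 0.000425) and EGLN3 (0.91) higher, against 39.2% of all genes. Without LG replicate 1 the count was 1, since VEGFA was lost. All genes gave 3461 higher and 3177 lower calls, which became 4500 and 1956 with library size alone.

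In high glucose, VPA called 4 of the 10 genes (EGLN3, ADM and EPAS1 higher, VEGFA lower), against 46.1% of 16188 genes in HGV against HG (25.8% higher and 20.2% lower). The median of the 10 was 0.21 and that of all genes 0.02. The same 4 genes did not overlap between HGV and HG, against 54.6% of all genes. Calls over all genes were 4184 higher and 3272 lower, and 5182 higher and 2424 lower with library size alone. Leaving out HG replicate 3 lowered the count of the 10 genes to 2.

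High glucose in the presence of VPA called 4 of the 10 genes (EGLN3 higher; VHL, EGLN1 and ADM lower), against 40.7% of 16208 genes in HGV against LGV (21.2% higher and 19.5% lower). Their median was -0.20, against 0.01 for all genes. HIF1A, VHL, EGLN1, ADM and EGLN3 did not overlap, as for 51.4% of all genes. Leaving out LGV replicate 3 lowered the count from 4 to 1, and LGV replicate 2 or HGV replicate 2 to 2. HG against LG and LGV against LG share the LG libraries, HGV against HG shares libraries with HG against LG and with HGV against LGV, and LGV against LG shares them with HGV against LGV, so similar or opposite estimates between these comparisons are not independent.

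The interaction of glucose and VPA called none of the 10 genes by edgeR, the lowest FDR being 0.578 (CA9, 0.74 ± 0.46), and none had an unadjusted p under 0.05. Without LG replicate 3 the interaction of CA9 was 0.21 (edgeR FDR = 0.908). Of all 16389 genes it called 7 (0.0427%, with 0.0244% above and 0.0183% below 0), and 1852 had an unadjusted p under 0.05. The likelihood ratio test and DESeq2 called 202 and 162 of all genes and none of the 10.

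Among other parts of the HIF machinery, HIF3A and ARNT2 rose and CREBBP fell with VPA. Of 21 further subunits, hydroxylases and degradation genes listed, 14 were tested. The counts of this and the following lists stand against shares of all genes that were 12% higher and 12.7% lower in HG against LG, 21.7% and 19.9% in LGV against LG, 25.8% and 20.2% in HGV against HG, and 21.2% and 19.5% in HGV against LGV. HIF3A, an alpha subunit whose short forms restrain HIF, rose from 0.507 to 3.08 CPM in LGV against LG (2.60, edgeR FDR = 4.66e-06) and from 1.02 to 6.69 CPM in HGV against HG (2.72, FDR = 5.89e-06). ARNT2, a partner of alpha subunits mainly known from neurons, rose from 1.23 to 4.56 CPM (1.89, edgeR FDR = 2.94e-05) and from 1.80 to 8.69 CPM (2.27, FDR = 1.76e-06). HIF3A and ARNT2 were also higher in HGV against LGV (1.10, edgeR FDR = 0.000431, and 0.91, FDR = 0.00095). In HG against LG, HIF3A gave 1.01 (edgeR FDR = 0.0418) and ARNT2 0.56 (FDR = 0.136). ARNT, the common partner, stayed at 44.4 CPM in LG, 44.6 in HG, 38.7 in LGV and 41.5 in HGV and was called in no comparison. CREBBP, a coactivator of HIF, fell from 201 to 115 CPM with VPA in low glucose (-0.79, edgeR FDR = 0.000402) and from 168 to 67.1 CPM in high glucose (-1.33, FDR = 5.03e-06). EP300, its relative, fell with glucose (-0.53, edgeR FDR = 0.00512, and -0.82 with VPA present, FDR = 0.000327), as did EGLN2, the third prolyl hydroxylase gene (-0.58, edgeR FDR = 0.0362, and -0.53, FDR = 0.0274). The EP300 mean was also lower after VPA. It went from 203 to 173 CPM in LGV against LG (-0.22, edgeR FDR = 0.224). In HGV against HG it went from 139 ± 9.8 to 99.3 ± 17.6 CPM (SD, n = 3). The interaction of EP300 was -0.25 (edgeR FDR = 0.692), so its VPA effect was not shown to differ between glucose levels. In the 14 genes, 1 was higher and 3 lower in HG against LG, 2 and 2 in LGV against LG, 4 and 3 in HGV against HG, and 3 and 4 in HGV against LGV, with medians of -0.02, -0.03, 0.06 and -0.13.

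Of the genes that act beside VEGFA and ADM, PGF, RAMP1 and ADM2 fell in HG against LG. PGF, a VEGF family ligand, fell from 83.3 to 25.8 CPM in HG against LG (-1.66, edgeR FDR = 2.63e-05) and rose to 139 CPM in LGV against LG (0.76, FDR = 0.0178, and 0.50, FDR = 0.02, without LG replicate 3), a direction opposite to that of VEGFA after VPA. VEGFB fell with glucose (-0.67, edgeR FDR = 0.00378, and -0.88 with VPA present, FDR = 0.000105). Of the 4 VEGF ligands and receptors tested, 0 rose and 2 fell in HG against LG (median -0.65), 2 rose in both VPA comparisons (medians 0.39 and 0.27), and all 4 fell in HGV against LGV (median -0.70). Without LG replicate 3, which had a median deviation of -0.42 for these genes, 3 fell in HG against LG and 1 rose in LGV against LG. RAMP1, which forms receptors with calcitonin-type receptors, fell from 4.97 to 1.09 CPM in HG against LG (-2.16, edgeR FDR = 6.58e-06) and rose in HGV against HG (1.45, FDR = 0.000232). RAMP2, which with CALCRL makes the adrenomedullin receptor, rose in HG against LG (1.03, edgeR FDR = 0.0159). ADM2, a peptide related to ADM, fell in all 4 comparisons, by 0.60, 0.39, 0.35 and 0.59 on the log2 scale in the order used above. Of the 4 adrenomedullin genes tested in all 4 comparisons, 1 rose and 2 fell, 0 rose and 1 fell, 1 rose and 1 fell, and 1 rose and 3 fell, in that order (medians -0.69, -0.09, -0.12 and -0.75). CALCRL passed the filter on low counts only through the VPA groups, with means of 0 and 0.0877 CPM in LG and HG and 0.952 and 1.26 CPM in LGV and HGV, and is not counted.

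Of the carbonic anhydrases other than CA9, 6 were tested in all 4 comparisons. In these, 2 rose and 0 fell in HG against LG, 2 and 2 in LGV against LG, 2 and 1 in HGV against HG, and 2 and 1 in HGV against LGV (medians 0.52, 0.10, -0.24 and 0.26). CA14, another membrane carbonic anhydrase, rose in all 4 comparisons (1.45, 2.16, 1.47 and 0.73). CA2, CA4, CA7 and CA12 passed the filter on low counts only through the VPA groups and are not counted. CA12, also a HIF target, had means of 0.227 CPM in LG, 0.332 in HG, 1.42 in LGV and 2.70 in HGV. Of 9 mitophagy receptors and BNIP3 relatives, 3 rose and 1 fell in HG against LG, 1 and 2 in each VPA comparison, and 2 and 2 in HGV against LGV (medians 0.12, 0.02, -0.11 and -0.12). BNIP3L, the nearest relative of BNIP3 and likewise a HIF target, rose with VPA from 58.4 to 91.0 CPM in low glucose (0.65, edgeR FDR = 0.000993) and from 49.8 to 80.5 CPM in high glucose (0.69, FDR = 0.00045).

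Of 20 glycolytic HIF targets, 1 rose and 6 fell in HG against LG (median -0.33), 4 rose and 6 fell in LGV against LG (median -0.15), 9 rose and none fell in HGV against HG (median 0.33), and 4 rose and 2 fell in HGV against LGV (median 0.02). SLC2A1, the main glucose transporter of most cultured cells, fell from 889 to 379 CPM in HG against LG (-1.21, edgeR FDR = 1.28e-06) and from 872 to 518 CPM in HGV against LGV (-0.77, FDR = 0.000359). HK1, which phosphorylates glucose, rose from 6.18 to 57.0 CPM in LGV against LG (3.21, edgeR FDR = 4.06e-09) and from 2.83 to 41.4 CPM in HGV against HG (3.86, FDR = 8.58e-09). SLC2A3, a high-affinity transporter, rose from 25.9 to 112 CPM (2.12, edgeR FDR = 0.00032) and from 20.2 to 131 CPM (2.70, FDR = 2.88e-08). Its estimate in HG against LG was -0.34 (edgeR FDR = 0.464), and 0.55 (FDR = 0.0164) without LG replicate 3. Without that library the rise of SLC2A3 in LGV against LG was 3.02 (edgeR FDR = 2.26e-11). The interaction of SLC2A3 was 0.59 (edgeR FDR = 0.652) and -0.30 (FDR = 0.637) without LG replicate 3, so its VPA effect was not shown to differ between glucose levels. None of the 20 passed the threshold for the interaction by edgeR, where all 20 estimates were above 0 with a median of 0.43 (0.04 over all genes), and 19 were above 0 with a median of 0.29 without LG replicate 3.

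Of another 43 HIF targets, 40 were tested in all 4 comparisons, BHLHE41, CA12 and TMEM158 being the others. These gave 4 higher and 10 lower in HG against LG (median -0.00072), 6 and 7 in LGV against LG (-0.02), 11 and 7 in HGV against HG (0.12), and 10 and 10 in HGV against LGV (-0.06). GBE1, the glycogen branching enzyme, fell after VPA by 1.00 in low glucose (edgeR FDR = 8.92e-05) and by 1.16 in high glucose (FDR = 6.87e-06). EDN1, which encodes the vasoconstrictor endothelin, rose in HG against LG (1.06, edgeR FDR = 0.00597) and fell in HGV against HG (-1.52, FDR = 0.000839). The ATF4 stress genes, whose pathway also acts on VEGFA, had 2 higher and 5 lower of 10 in HG against LG, 1 and 3 in LGV against LG, 2 and 3 in HGV against HG, and 2 and 5 in HGV against LGV (medians -0.24, -0.32, -0.04 and -0.15).

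**Figure D3:**
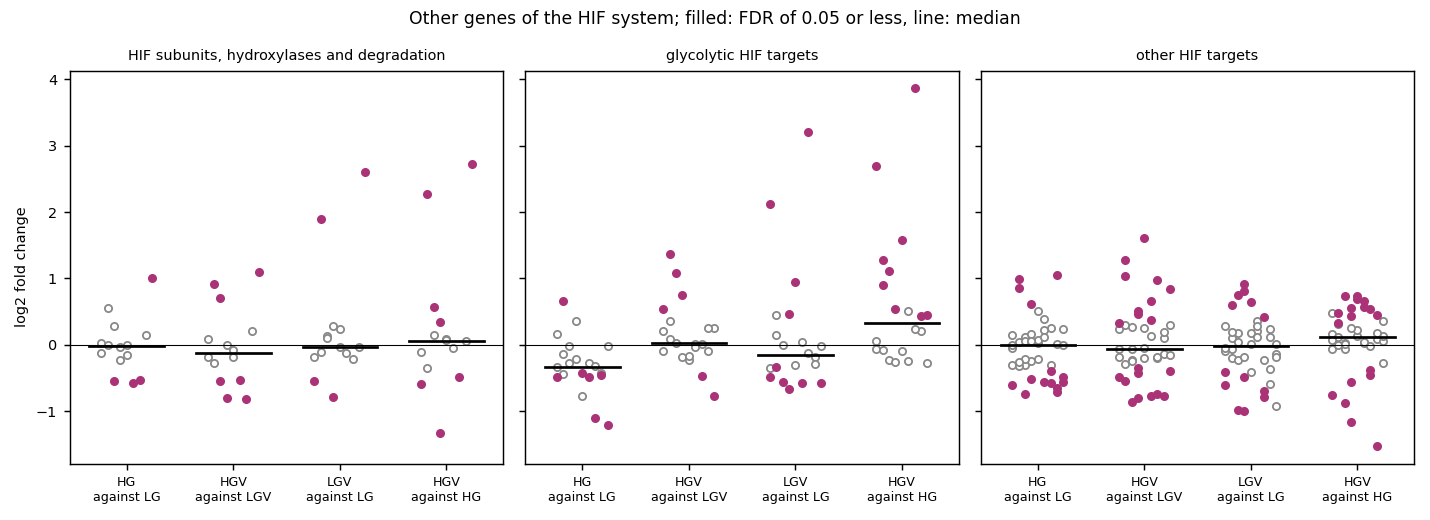
Log2 fold change (y axis) of other genes of the HIF system in each comparison, with 1 panel per gene list. Each point is a gene tested in all 4 comparisons, filled where the edgeR FDR is 0.05 or less, and the line is the median. Glycolytic targets have a median of -0.33 in HG against LG and 0.33 in HGV against HG, and HK1 is the highest point of that list after VPA.

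Within LG, replicate 3 differed from the other libraries most for CA9 (1.18 above their mean on the log2 scale), EGLN3 (0.80) and BNIP3 (0.48). EGLN1 was 0.25 and ADM 0.16 above, HIF1A differed by 0.00, and VEGFA and EPAS1 were 0.21 and 0.20 below. Glycolytic HIF targets were highest of the 3 LG libraries in replicate 3 for 16 of 20 genes, with a median deviation of 0.33, and the other HIF targets for 25 of 43 with a median of 0.17. For all genes these values were 34.4% and -0.0007. The deviation was not limited to HIF targets. Hepatocyte markers were highest in LG replicate 3 for 8 of 9 genes (median 0.14), as were the 2 leukocyte genes (0.52). The ATF4 stress genes were highest there for 0 of 10 (median -0.16). No label names a batch or other property of this library, and what set it apart was not tested. Without it, glycolytic targets gave 5 higher and 6 lower in HG against LG (median -0.18) and 6 higher and 4 lower in LGV against LG (median -0.01), and the 40 other HIF targets gave 8 and 8, and 10 and 6. In the same 2 comparisons, subunits and degradation genes gave 2 and 4, and 3 and 2, adrenomedullin genes 1 and 3, and 0 and 1, carbonic anhydrases 3 and 0, and 2 and 1, mitophagy genes 2 and 2, and 1 and 2, and ATF4 genes 1 and 5, and 0 and 4. Other libraries also deviated: the 10 genes had a median deviation of 0.17 in LGV replicate 2, and in HGV replicate 1 the glycolytic targets had one of -0.24, with 0 of 20 genes highest.

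**Figure D4:**
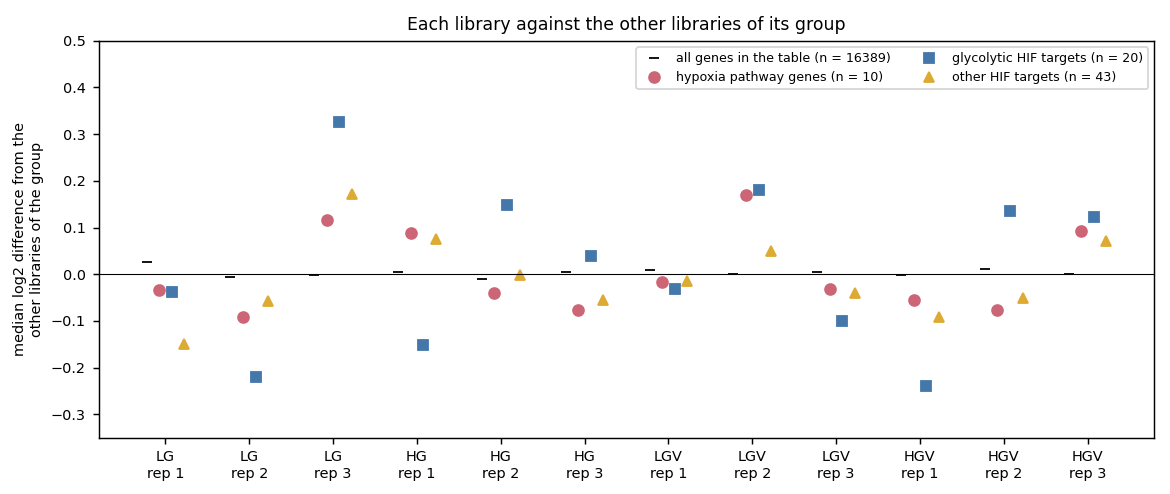
Median log2 difference of each library from the other libraries of its group (y axis), for the hypoxia pathway genes and the other gene lists in all 12 libraries (x axis). LG replicate 3 is at 0.33 for the glycolytic targets and 0.12 for the 10 genes, LGV replicate 2 is at 0.17 for the 10 genes, HGV replicate 1 is at -0.24 for the glycolytic targets, and the median of all genes stays near 0.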

How the data were processed

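Poly(A) RNA from 12 HepG2 libraries was sequenced as 50 nt single reads. The authors trimmed reads with FASTX Toolkit, aligned them with STAR to GRCh37 and deposited raw read counts per Ensembl gene from featureCounts, without normalization. Genes averaging under 10 reads had been left out, and the lowest gene mean in the table was 10. Strand use in counting is not given in the sources used here.

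Samples were grouped by the labels. Counts were tested with edgeR 4.0.16 (R 4.3.3): TMM factors, a mean count of at least 10 in the libraries compared, the quasi-likelihood F test, and a separate fit per comparison (HG against LG, LGV against LG, HGV against HG, HGV against LGV). The interaction used all 12 libraries. FDR is the Benjamini-Hochberg adjusted p over all genes tested, and 0.05 or less was called. SE is the absolute log2 fold change divided by the square root of F. Each test is two-sided. The procedure was tested on simulated data. Total counts of 29798442 to 45572694 put 3 reads at 0.0713 to 0.112 CPM, which covers counting error only.

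Exon lengths and positions came from GENCODE on GRCh37, with a length for 97.47% of 16389 genes. Reads had been counted by the authors on an earlier Ensembl annotation, so the lengths can include exons that were not counted. Promoters came from RefSeq. Plots used matplotlib 3.10.9.

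The 10 genes and the lists were chosen with earlier results of these data known. All 10 were named, and from each list the 3 genes with the largest called change in a comparison, with at least 1 log2 CPM, or needed as an exception. Not every gene meeting this rule is reported here. Alternatives were DESeq2 size factors, upper quartile factors, library size, a filter of 1 CPM in 3 libraries, no filter, the likelihood ratio test, DESeq2 1.42.0, 1 fit of all libraries, replicate number as a block, an FDR of 0.01 and leaving out each library. Lists and genes without LG replicate 3, lists limited to genes tested in all 4 pairwise comparisons and MANE Select lengths were added after seeing the data.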

Additional observations from a re-analysis of the deposited data

How the results depend on the processing

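Across 850 alternative fold changes of the 10 genes, 768 kept their direction and their side of the threshold. Of the rest, 28 lost a call, 19 gained one and 35 reversed direction. Most of the fold changes were not called to begin with, and the FDR of 0.01 could not change these, so the 768 is not a measure of how stable the calls were. The calls of ADM in both VPA comparisons, EGLN3 in HGV against HG and VHL in HGV against LGV were kept in every alternative, and where other calls changed the cause was not tested. Depth limits CA9 and ANKRD37, with 38 to 207 and 50 to 112 reads per library. Of the 10 genes, the likelihood ratio test and DESeq2 each called 2 in HG against LG. An FDR of 0.01 called 1 in LGV against LG, 2 in HGV against HG and 1 in HGV against LGV, where upper quartile factors and library size each called 2. Over all genes, an FDR of 0.01 called 1852 in HG against LG, 4263 in HGV against LGV and 1 for the interaction, for which library size gave 1, the likelihood ratio test 202 and DESeq2 162. Leaving out 1 library gave 1933 to 5338 calls over all genes in HG against LG, 4942 to 6986 in LGV against LG, 6083 to 7793 in HGV against HG, 4516 to 7228 in HGV against LGV and 1 to 217 for the interaction. For the 10 genes it gave 0 to 4, 1 to 3, 2 to 4, 1 to 4 and 0 calls.

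Reversed estimates belonged to fold changes that were not called. In LGV against LG, HIF1A was 0.0367 with upper quartile factors and 0.12 with library size, and VHL 0.0318 with library size. In HGV against HG, HIF1A and BNIP3 were 0.0142 and 0.0277 with library size. In HGV against LGV, ANKRD37 was 0.0656 with upper quartile factors and 0.0606 with library size. The interaction of VHL was -0.0186 with DESeq2 size factors, -0.0193 with upper quartile factors, -0.0212 with the filter of 1 CPM, -0.0184 with DESeq2 and -0.0441 with library size. Leaving out 1 library gave -0.058 to 0.20 for BNIP3 in HG against LG and -0.54 to 0.24 for CA9 in LGV against LG. In HGV against HG it gave -0.18 to 0.0271 for BNIP3, -0.22 to 0.0177 for HIF1A and -0.0185 to 0.53 for ANKRD37. In HGV against LGV it gave -0.38 to 0.0728 for CA9 and -0.36 to 0.20 for ANKRD37. For the interaction it gave -0.16 to 0.034 for HIF1A, -0.0957 to 0.0712 for VHL and -0.13 to 0.0422 for EGLN1.

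The sources used here do not say what the replicate number stands for. The mean correlation of deviations between same-numbered libraries was -0.15 in HG against LG and 0.068 in LGV against LG. In HGV against HG it was 0.11 and in HGV against LGV 0.12, and not every same-numbered pair exceeded 0.1 in any comparison. For libraries of different numbers the means were 0.079, -0.035, -0.065 and -0.057 in the same order. With 3 libraries in each group, these values cannot show whether same-numbered libraries shared a culture or batch. With replicate number as a block, 2 of the 10 genes were called in HG against LG, with CA9 added (-0.80, edgeR FDR = 0.0312), HIF1A passed in HGV against LGV (-0.34, FDR = 0.0206), and the interaction called 13 of all genes.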
